A study of Mus musculus with 5 samples.

Results

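The general mRNA decay machinery, the enzymes and cofactors that remove the poly(A) tail, open the cap and degrade the body of an mRNA, was followed in mouse Neuro-2A (N2A) neuroblastoma cells after knockdown of Upf1. The genes were chosen by symbol, with earlier results of these data known, and comprised 45 of 55573 genes. They fell into 10 roles, from decapping to poly(A) binding. All N2A cells were transiently transfected with 60 pmol of siRNA. The siCtl group (2 libraries, replicates 1 and 3) received a commercial negative control siRNA, and the siUpf1 group (3 libraries, replicates 1, 2 and 3) received an siRNA against Upf1. The time between transfection and harvest is not given in the sources used here, and knockdown was transient in a single tumour-derived line. The labels do not say whether replicates came from separate cultures, so p-values measure the spread between these libraries, which may be technical.

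Most cytoplasmic mRNAs are degraded in steps. The PAN2-PAN3 and CCR4-NOT complexes shorten the poly(A) tail, a process in which poly(A)-binding proteins and BTG/TOB proteins take part. The mRNA is then either decapped by DCP2 and its activators and digested from the 5′ end by XRN1, or digested from the 3′ end by the exosome with the help of the SKI complex. UPF1 is the RNA helicase at the centre of nonsense-mediated mRNA decay (NMD), which hands its targets to the same decapping, deadenylation and exonuclease enzymes. The comparison of siUpf1 with siCtl asked whether the mRNAs encoding these shared enzymes changed in level when UPF1 was depleted.

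The siRNA is shown because the knockdown rests on it, and because bases of its strands are looked for in the members below. The first line gives the siRNA as the labels spell it, with capitals marking the bases that pair with positions 2 to 8 of the antisense strand. The second line gives the antisense strand, with positions 2 to 8 in capitals, counted from its 5′ end.
Upf1 siRNA, sense: ucaagguuccuGAUAAUUa
Upf1 siRNA, antisense: uAAUUAUCaggaaccuuga
The 19 bases of the sense strand occurred once in the Upf1 coding sequence, on the minus strand of GRCm38, with 15 bases in exon 8 (chr8:70339743-70339757) and 4 bases in exon 9 (chr8:70339429-70339432) of 24. Upf1 itself had 5217 and 5243 normalised read counts in siCtl replicates 1 and 3. It had 2403, 2496 and 2449 in siUpf1 replicates 1, 2 and 3, which is 46.8% of the siCtl mean (log2 fold change -1.10, SE 0.051). Every siUpf1 library was far below both siCtl libraries, and in each of them Upf1 mRNA was still present.

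The libraries held 20402205 to 27717594 assigned reads each. Replicates of a group differed by more than sampling noise (chi-square per degree of freedom 5.65 to 23.3, the highest between siUpf1 replicates 1 and 2). Each was counted as its own replicate, although such spread may also be technical. Of 11 neuroblastoma and neuronal marker genes, 9 had a mean of at least 100 normalised counts, while Nefm and Nefl were near 0. The summed level of these 11 markers was 36134 to 36427 in siCtl and 42608 to 45151 in siUpf1, and its part in the results was not tested. Markers of other cells were low. Summed counts were 82 to 86 in siCtl and 89 to 93 in siUpf1 for fibroblasts (5 genes, Col3a1 and Lum at 0), 37 to 40 and 30 to 35 for leukocytes (4 genes), and 476 to 509 and 529 to 561 for glia (5 genes, mostly Mbp). These sums did not overlap between the groups, and their part in the results was not tested. In RNA from whole cultures, fewer cells with an mRNA and less of that mRNA per cell cannot be told apart.

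Across the machinery, more mRNAs fell than rose, and most of the changes were small. DESeq2's Wald test at an adjusted p under 0.05 called 29 of 45 members (64.4%), beside 44.9% of all genes tested. Of these, 8 members rose (17.8%, beside 22.0% of all genes tested) and 21 fell (46.7%, beside 22.9%). All 45 members were well expressed, the lowest mean being 275 normalised counts. Among the 9492 genes tested with a mean of at least 250, 60.2% were called, 29.0% higher and 31.2% lower. The share of members called was thus near that of genes of like abundance, and the share called lower was above it. Because the members were chosen with earlier results of these data known, these shares are a description only. The siUpf1 and siCtl libraries did not overlap for 34 members (75.6%), beside 69.4% of all genes tested and 78.8% of those with a mean of at least 250.

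The median log2 fold change of the 45 members was -0.15, beside -0.0024 over all genes tested and -0.017 over those with a mean of at least 250. The median of the members relative to the siCtl mean was -0.11, -0.18 and -0.12 on the log2 scale in siUpf1 replicates 1, 2 and 3. In these libraries 32, 32 and 34 members lay below the siCtl mean. The range ran from -0.83 for Cnot9 to 0.92 for Cnot7, both of the CCR4-NOT complex. A log2 fold change of at least 0.5 in size was reached by 4 members (8.89%), Cnot7, Cnot9, Exosc9 and Dcp1b, beside 19.0% of genes tested with a mean of at least 250. edgeR's quasi-likelihood test called 9 members higher and 23 lower, beside 27.5% and 27.1% of all genes (54.6% in either direction). Without siCtl replicate 3, 5 members were called higher and 13 lower, and the share of all genes called was 37.2%.

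**Figure D1:**
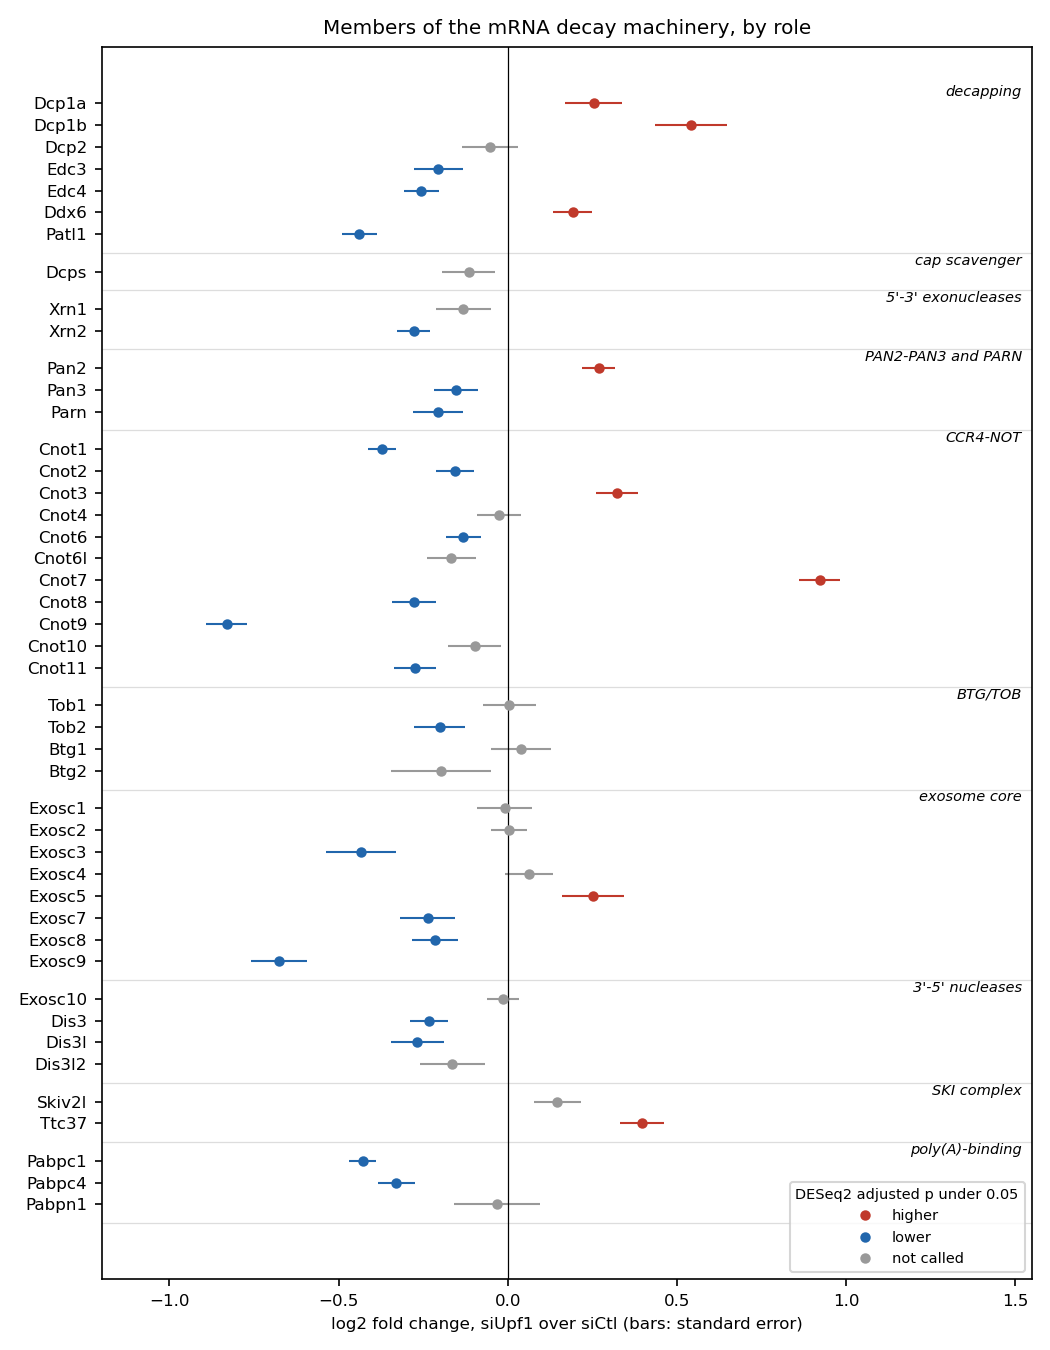
Log2 fold change of each of the 45 members, siUpf1 over siCtl, grouped by role. Points are DESeq2 estimates from 2 siCtl and 3 siUpf1 libraries, bars are standard errors, and colour gives the call at an adjusted p under 0.05. Cnot7 (0.92) and Cnot9 (-0.83) lie farthest from 0, and 21 of the 29 called members lie to the left.

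The decapping genes divided by gene. Of 7 members, 3 rose, 3 fell and 1 was not called. Both genes of the DCP1 scaffold, which activates the decapping enzyme, rose, as did the DEAD-box helicase Ddx6, while Patl1, Edc4 and Edc3, scaffold or enhancer proteins of the decapping complex, fell. Dcp1b (chr6:119175253-119221616, plus strand) had 452 and 424 normalised counts in siCtl replicates 1 and 3, and 640, 670 and 603 in siUpf1 replicates 1, 2 and 3. The lowest siUpf1 library was thus above the highest siCtl library (log2 fold change 0.54, SE 0.11, DESeq2 adjusted p = 2.42e-06). Its paralog Dcp1a had 808 and 766 in siCtl and 943, 953 and 921 in siUpf1, a smaller increase without overlap (0.25, SE 0.085, DESeq2 adjusted p = 0.00806). Patl1 (chr19:11912399-11945091, plus strand), which links deadenylated mRNAs to decapping, had 4136 and 3961 in siCtl and 3019, 2919 and 3017 in siUpf1. All its siUpf1 libraries were lower (-0.44, SE 0.052, DESeq2 adjusted p = 8.03e-16).

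Of the other decapping genes, Edc4 fell by 0.25 on the log2 scale (DESeq2 adjusted p = 7.97e-06). Of its exon bases, 8.33% were shared with the neighbouring gene Nrn1l. Edc3 fell by 0.20 (DESeq2 adjusted p = 0.0127), whereas Ddx6 rose by 0.19 (DESeq2 adjusted p = 0.00265). Dcp2, which encodes the decapping enzyme itself, was not called, with 926 and 917 in siCtl and 888, 855 and 919 in siUpf1 (-0.05, SE 0.084). Dcps, which hydrolyses the cap left over after 3′ decay, was not called either (-0.12, SE 0.078). The increases of Dcp1a and Ddx6 were not called without siCtl replicate 3, where the DESeq2 adjusted p was 0.172 for Dcp1a (0.0012 to 0.21 over its 12 alternatives, edgeR included) and 0.198 for Ddx6 (0.00251 to 0.198). Edc3 was not called without siCtl replicate 1, siCtl replicate 3 or siUpf1 replicate 1 (0.0711 to 0.18, with 6.19e-05 to 0.218 over its 12 alternatives).

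Of the 5′-3′ exonucleases, the nuclear enzyme was called and the cytoplasmic one was not. Xrn2, which acts in transcription termination and nuclear RNA decay, had 5170 and 5005 in siCtl and 4282, 4040 and 4253 in siUpf1 (log2 fold change -0.28, SE 0.050, DESeq2 adjusted p = 1.42e-07). Xrn1, the cytoplasmic exonuclease that digests decapped mRNA, had 1721 and 1769 in siCtl and 1707, 1403 and 1660 in siUpf1. Its siUpf1 libraries were all lower, but replicate 2 lay apart from the others and the difference was not called (-0.13, SE 0.081, DESeq2 adjusted p = 0.184).

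The members Pan2, Pan3 and Parn, deadenylase genes outside CCR4-NOT, were all called, in both directions. Pan2, the catalytic subunit of PAN2-PAN3, had 3197 and 3241 in siCtl and 3841, 3898 and 3895 in siUpf1, an increase without overlap (0.27, SE 0.050, DESeq2 adjusted p = 4.8e-07). Its partner Pan3, which recruits PAN2 to the tail, had 2118 and 2135 in siCtl and 1975, 1787 and 1965 in siUpf1, a small decrease without overlap (-0.15, SE 0.066, DESeq2 adjusted p = 0.0436). Parn, a poly(A)-specific ribonuclease, fell by 0.21 (DESeq2 adjusted p = 0.0145). Neither decrease was called without siCtl replicate 1, siCtl replicate 3, siUpf1 replicate 2 or siUpf1 replicate 3. The DESeq2 adjusted p was then 0.0741 to 0.228 for Pan3 (0.000747 to 0.499 over its 12 alternatives) and 0.0551 to 0.197 for Parn (0.00634 to 0.341).

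The CCR4-NOT complex held the largest increase and the largest decrease of the 45 members. Of its 11 genes, 2 rose, 6 fell and 3 were not called. Cnot7 (ENSMUSG00000031601.16, chr8:40492540-40515847, minus strand) encodes a catalytic deadenylase subunit of the CAF1 type. It had 2251 and 2131 normalised counts in siCtl replicates 1 and 3 and 4401, 3937 and 4110 in siUpf1 replicates 1, 2 and 3. The siUpf1 mean was 189% of the siCtl mean, 4150 ± 235 (SD, n = 3) against 2191 ± 84.4 (SD, n = 2), and no library of either group came near the other (log2 fold change 0.92, SE 0.061, DESeq2 adjusted p = 2.76e-50).

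Cnot8, the paralog that can occupy the place of CNOT7 in the complex, moved in the other direction. It had 1939 and 1972 in siCtl and 1603, 1670 and 1572 in siUpf1, without overlap (-0.28, SE 0.065, DESeq2 adjusted p = 7.6e-05). The other pair of catalytic subunits, of the CCR4 type, showed small differences. Cnot6 had 4210 and 3930 in siCtl and 3759, 3650 and 3732 in siUpf1 (-0.13, SE 0.052, DESeq2 adjusted p = 0.0291), and Cnot6l had 1644 and 1591 in siCtl and 1514, 1337 and 1465 in siUpf1 (-0.17, SE 0.073, DESeq2 adjusted p = 0.052). The siUpf1 libraries of both genes lay below the siCtl libraries. The decrease of Cnot6 was not called without siCtl replicate 1, siUpf1 replicate 2 or siUpf1 replicate 3 (DESeq2 adjusted p 0.0854 to 0.395, with 4.97e-05 to 0.395 over its 12 alternatives).

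Cnot9 (ENSMUSG00000026174.9, chr1:74506058-74530842, plus strand), a conserved subunit that binds adaptor proteins such as those of the microRNA pathway, fell most. It had 3167 and 3107 in siCtl and 1726, 1863 and 1710 in siUpf1. The siUpf1 mean of 1766 ± 83.9 was 56.3% of the siCtl mean of 3137 ± 42.4 (log2 fold change -0.83, SE 0.061, DESeq2 adjusted p = 2.89e-40). Cnot1 (chr8:95719451-95807464, minus strand), the scaffold on which the complex assembles, had 12733 and 12664 in siCtl and 9843, 9522 and 10092 in siUpf1. It was the member of the complex with the highest counts, and all its siUpf1 libraries were lower (-0.37, SE 0.042, DESeq2 adjusted p = 8.48e-18).

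The module of CNOT2 and CNOT3 that regulates the complex split in direction. Cnot3 (chr7:3645268-3661109, plus strand) had 1742 and 1871 in siCtl and 2263, 2253 and 2269 in siUpf1, an increase without overlap (0.32, SE 0.062, DESeq2 adjusted p = 1.09e-06), whereas Cnot2 fell by 0.16 (DESeq2 adjusted p = 0.0155). Cnot11, which together with Cnot10 forms a further module, fell by 0.27 (DESeq2 adjusted p = 4.32e-05). Cnot10 itself (-0.10, SE 0.079) and Cnot4, a ubiquitin ligase associated with the complex (-0.03, SE 0.065), were not called. Cnot2 was not called without siCtl replicate 1, siCtl replicate 3 or siUpf1 replicate 2 (DESeq2 adjusted p 0.0958 to 0.156, with 0.006 to 0.416 over its 12 alternatives). The calls of Cnot1, Cnot3, Cnot7, Cnot8 and Cnot9 were kept under all 12 alternatives.

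**Figure D2:**
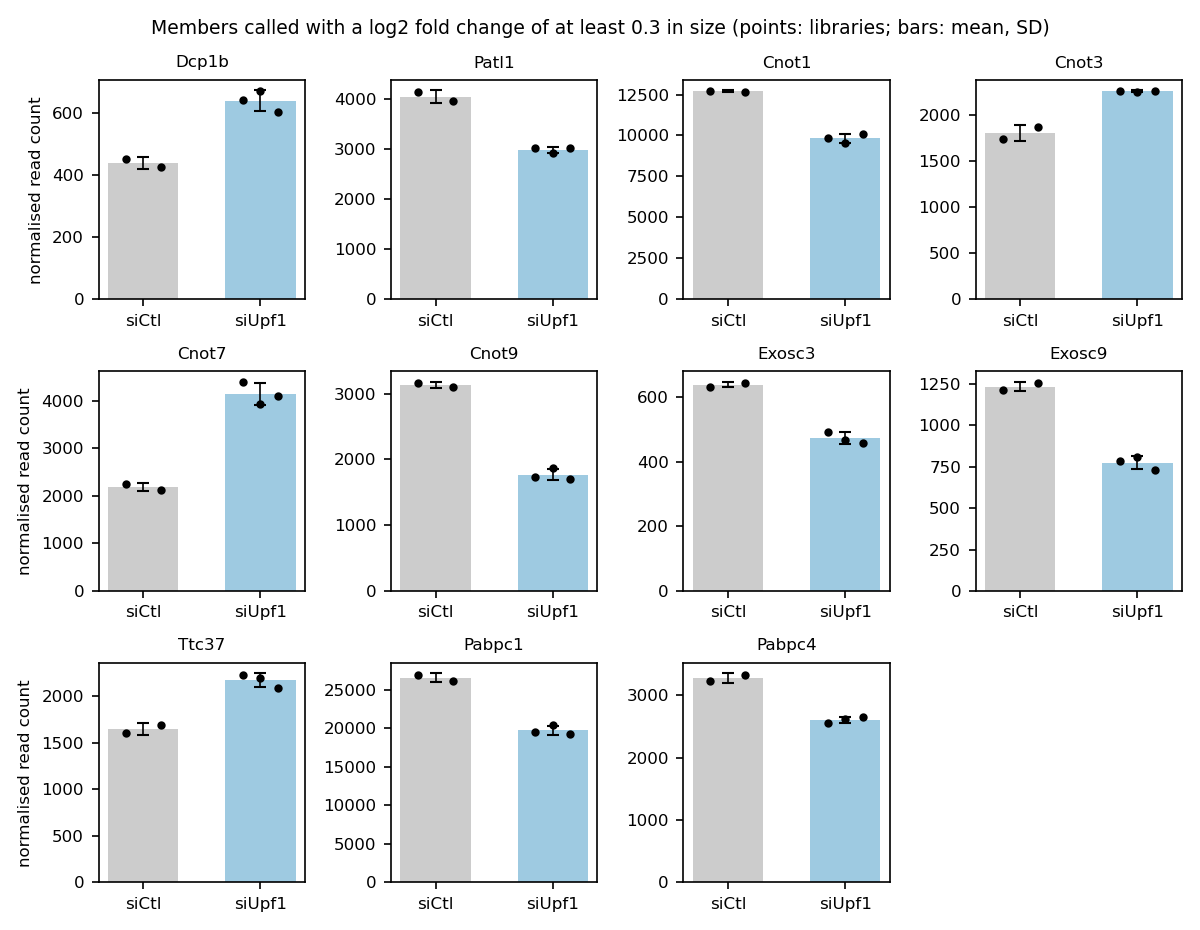
Normalised read counts of the 11 members called with a log2 fold change of at least 0.3 in size. Each point is a library, bars are group means with the SD (n = 2 for siCtl, n = 3 for siUpf1), and the vertical axes start at 0. In no panel do the libraries of the groups overlap.

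The BTG/TOB proteins, antiproliferative adaptors that bind the CAF1 subunits and promote deadenylation, showed little difference. Tob2 had 1938 and 1678 in siCtl and 1608, 1499 and 1604 in siUpf1 and was the only one of the 4 called (-0.20, SE 0.075, DESeq2 adjusted p = 0.019). Its siCtl libraries differed by more than the distance from the lower one to the siUpf1 group. It was not called without siCtl replicate 1 or siUpf1 replicate 2 (DESeq2 adjusted p 0.0971 to 0.478, with 0.00176 to 0.478 over its 12 alternatives). Tob1 had 1115 and 1040 in siCtl and 1096, 1043 and 1101 in siUpf1 (0.01, SE 0.079). Btg1 had 872 and 905 in siCtl and 975, 882 and 880 in siUpf1 (0.04, SE 0.087). Btg2 had 312 and 284 in siCtl and 285, 254 and 242 in siUpf1 (-0.20, SE 0.15). The groups overlapped for Tob1, Btg1 and Btg2. Btg2 had the lowest mean count and the largest standard error of the 45 members.

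The exosome, a ring of non-catalytic subunits through which RNA is threaded to its nucleases, had 1 core gene higher, 4 lower and 3 not called of 8. Exosc9 (ENSMUSG00000027714.11, chr3:36552606-36565727, plus strand), a subunit of the ring, had 1215 and 1254 in siCtl and 787, 806 and 729 in siUpf1. The siUpf1 mean of 774 ± 39.9 was 62.7% of the siCtl mean of 1234 ± 27.5 (log2 fold change -0.68, SE 0.084, DESeq2 adjusted p = 8.85e-15). Exosc3 (chr4:45316613-45342732, minus strand), of the RNA-binding cap of the ring, had 632 and 644 in siCtl and 493, 466 and 459 in siUpf1. Its libraries were also separate (-0.43, SE 0.10, DESeq2 adjusted p = 0.000136).

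The other core subunits moved less. Exosc7 (-0.24, DESeq2 adjusted p = 0.0103) and Exosc8 (-0.22, DESeq2 adjusted p = 0.00421) fell, and Exosc5 rose (0.25, DESeq2 adjusted p = 0.0154). Exosc1, Exosc2 and Exosc4 were not called and lay between -0.01 and 0.06. Without siCtl replicate 3 none of Exosc5, Exosc7 and Exosc8 was called, and Exosc7 was also lost without siUpf1 replicate 3. Exosc5 was lost as well without siCtl replicate 1, siUpf1 replicate 2 or siUpf1 replicate 3. The DESeq2 adjusted p was then 0.179 for Exosc8 (0.0024 to 0.179 over its 12 alternatives), 0.0665 to 0.228 for Exosc7 (0.00241 to 0.228) and 0.0557 to 0.224 for Exosc5 (0.000375 to 0.317).

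Among the 3′-5′ nucleases, Dis3, the catalytic subunit of the nuclear exosome, had 3182 and 3403 in siCtl and 2818, 2745 and 2848 in siUpf1 (-0.23, SE 0.056, DESeq2 adjusted p = 0.000134). Dis3l, its cytoplasmic counterpart, had 1215 and 1294 in siCtl and 1016, 1081 and 1036 in siUpf1 (-0.27, SE 0.078, DESeq2 adjusted p = 0.00188). Both fell without overlap and by similar amounts. Neither was called without siCtl replicate 3, where the DESeq2 adjusted p was 0.0564 for Dis3 (7.97e-07 to 0.0904 over its 12 alternatives) and 0.115 for Dis3l (0.000348 to 0.115). Exosc10, a nuclear exosome nuclease, had 5366 and 5604 in siCtl and 5337, 5571 and 5383 in siUpf1 and was not called (-0.02, SE 0.047). Dis3l2, which degrades uridylated RNA without the exosome, was not called by DESeq2 (-0.16, SE 0.097).

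The SKI complex unwinds mRNA and feeds it into the cytoplasmic exosome, and of its 2 members Ttc37 was called. Ttc37 (chr13:76098734-76190316, plus strand), its scaffold, had 1604 and 1693 in siCtl and 2226, 2199 and 2089 in siUpf1 (0.40, SE 0.065, DESeq2 adjusted p = 6.88e-09). The helicase gene Skiv2l had 1474 and 1593 in siCtl and 1645, 1742 and 1712 in siUpf1 and was not called (0.15, SE 0.069, DESeq2 adjusted p = 0.07), although its libraries did not overlap. Wdr61, a further subunit of the complex that was counted among the other pathway genes, fell, with 1393 and 1445 in siCtl and 1125, 1217 and 1103 in siUpf1 (-0.31, SE 0.076, DESeq2 adjusted p = 0.000191). The called genes of the complex thus moved in both directions.

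The cytoplasmic poly(A)-binding protein genes fell. Pabpc1 (chr15:36595661-36609668, minus strand), the main protein that coats the tail in the cytoplasm, had 26943 and 26166 in siCtl and 19526, 20387 and 19287 in siUpf1. It had the highest counts of the 45 members, and its siUpf1 mean was 74.3% of the siCtl mean (-0.43, SE 0.040, DESeq2 adjusted p = 9.22e-26). Pabpc1 has processed pseudogenes of nearly identical sequence, so the assignment of its reads is uncertain. Pabpc4 (chr4:123262351-123298925, plus strand), a related protein, had 3223 and 3329 in siCtl and 2560, 2613 and 2651 in siUpf1, without overlap (-0.33, SE 0.054, DESeq2 adjusted p = 1.01e-08). The nuclear poly(A)-binding gene Pabpn1 was not called (-0.03, SE 0.13), and 21.4% of its exon bases were shared with the read-through gene Gm20521.

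Levels were compared between members only per exon length, as TPM, the counts per kilobase of the union of a gene's exons scaled to the same total in every library. In siCtl, TPM ran from 7.64 ± 0.0487 for Dcp1b and 8.71 ± 0.48 for Dis3l2 to 169 ± 11.8 for Exosc10 and 450 ± 8.31 for Pabpc1 (SD, n = 2). The members of a complex did not have equal mRNA levels. In CCR4-NOT, Cnot2 was highest at 122 ± 3.34 TPM, followed by Cnot9 at 90.8 ± 2.33, then Cnot8 at 82.2 ± 4.19 and Cnot1 at 81.9 ± 2.89, and Cnot6l was lowest at 17.4 ± 0.278. With the longest coding transcript as length, Cnot2 (134 TPM) was followed by Cnot1 (126 TPM), and Cnot9 stood at 80.2 TPM. In siUpf1, Cnot9 stood at 50.4 ± 3.31 TPM and Cnot7 had gone from 41.7 ± 0.027 to 78.3 ± 12.1 TPM (SD, n = 3). Every member had a lower TPM in siUpf1 replicate 2 than in replicates 1 and 3. The siUpf1 SDs in TPM thus hold a difference shared by the members, whose cause was not tested. Ddx6, called higher by DESeq2, had 42.7 TPM in siUpf1 replicate 2, beside 44.0 and 42.8 in siCtl replicates 1 and 3.

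Among the decapping genes, the activators Patl1 (104 ± 0.884 TPM in siCtl) and Edc4 (77.6 ± 4.02) were above the enzyme Dcp2 (11.7 ± 0.382) and its partner Dcp1a (10.6 ± 0.014). In siUpf1, Dcp1a stood at 12.5 ± 1.19 TPM, Dcp2 at 11.2 ± 1.35 and Dcp1b at 11.0 ± 0.98, and on this scale Dcp1a was above both of the others in all 3 libraries. That order did not hold by the longest coding transcript, where the siUpf1 means were 16.2 TPM for Dcp1b, 14.2 for Dcp1a and 8.70 for Dcp2. Xrn1 was at 10.4 ± 0.609 TPM in siCtl and Xrn2 at 141 ± 2.3. The level depends on the length chosen. With the longest coding transcript in place of the union of exons, Exosc7 in siCtl went from 19.8 to 85.3 TPM and Pabpc1 from 450 to 787 TPM, and the rank correlation of the scales across the 45 members, which share libraries and counts, was 0.887.

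**Figure D3:**
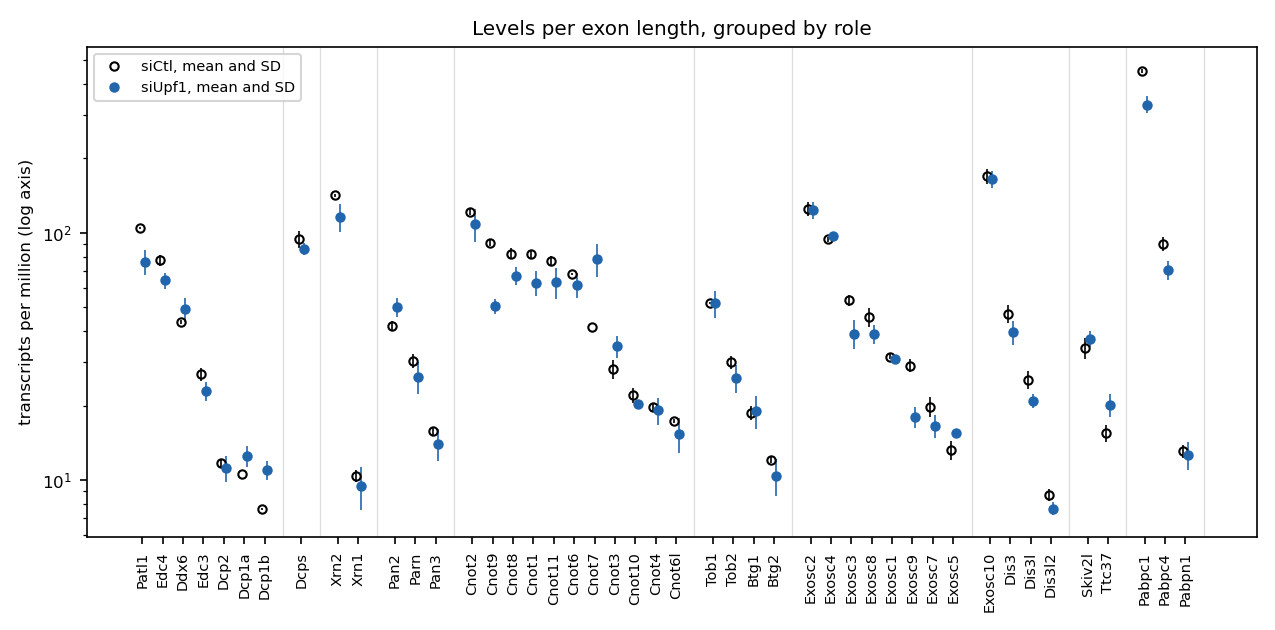
TPM of each member in siCtl (open circles, n = 2) and siUpf1 (filled circles, n = 3), mean and SD, on a log axis and ordered by siCtl level within each role. Pabpc1 stands highest, at 450 TPM in siCtl, and Cnot7 moves from 41.7 to 78.3 TPM. Of the siUpf1 libraries, replicate 2 had the lowest TPM for every member.

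Related genes were compared in pairs within each library by the log2 ratio of their normalised counts, which does not depend on library size. There were 9 pairs, 8 of them paralogs and the other the PAN2-PAN3 partners. With 2 against 3 libraries, the smallest p that the exact two-sided permutation test allows is 0.1, or 0.18 after adjustment over the 9 pairs, so no pair could pass 0.05. Cnot7/Cnot8 differed most. Its log2 ratio was 0.21 and 0.11 in siCtl replicates 1 and 3, and 1.46, 1.24 and 1.39 in siUpf1 replicates 1, 2 and 3, a difference of 1.20 (exact permutation p = 0.1, adjusted 0.18) that stayed between 1.15 and 1.26 when any library was left out. In TPM, Cnot7 made up 33.7% ± 1.12 of the sum of the pair in siCtl and 53.8% ± 1.94 in siUpf1. With the longest coding transcript as length these shares were 44.1% and 64.4%. The sum itself was 124 ± 4.21 TPM in siCtl and 145 ± 17.5 in siUpf1.

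The ratios of 6 pairs did not overlap between the groups. For Pan2/Pan3 the log2 ratio was 0.59 and 0.60 in siCtl and 0.96, 1.12 and 0.99 in siUpf1, a difference of 0.43 in favour of the catalytic subunit. For Dcp1a/Dcp1b it was 0.84 and 0.85 in siCtl and 0.56, 0.51 and 0.61 in siUpf1, so that the difference of -0.29 favoured Dcp1b although both genes rose. Tob1/Tob2 (0.20) and Btg1/Btg2 (0.24) were separated by less, and the latter ranged from 0.14 without siCtl replicate 1 to 0.33 without siCtl replicate 3. These 5 pairs all had the smallest exact permutation p of 0.1. Pabpc1/Pabpc4 did not overlap either, with a difference of -0.10 (exact permutation p = 0.2), which ranged from -0.14 to -0.055 when a library was left out.

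The ratios of the remaining pairs overlapped. For Xrn1/Xrn2 the difference was 0.14 (exact permutation p = 0.3). For Cnot6/Cnot6l it was 0.04 (exact permutation p = 0.6), and for Dis3/Dis3l 0.03 (exact permutation p = 0.5), both smaller than the spread between libraries.

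**Figure D4:**
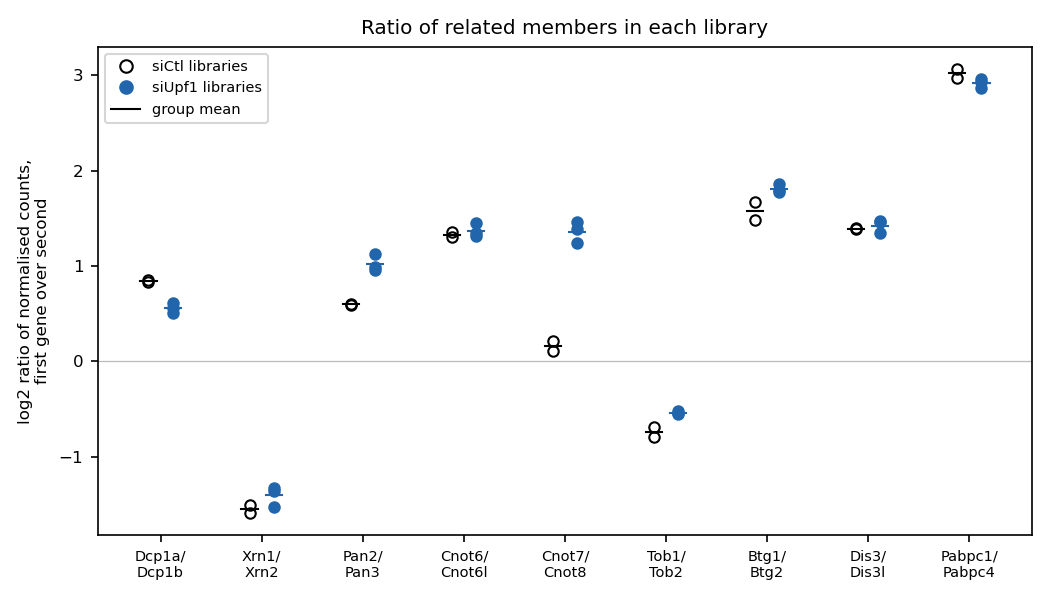
Log2 ratio of normalised read counts of the first gene over the second in each library, for 9 pairs of related members. Open circles are siCtl libraries, filled circles siUpf1 libraries and dashes group means. Cnot7/Cnot8 moves from 0.21 and 0.11 to between 1.24 and 1.46.

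The representative 3′ UTRs of the members were searched, on the mRNA strand, for the 7-mers complementary to positions 2 to 8 of each strand of the Upf1 siRNA. A further 7-mer, GCAGTAC, was taken from an earlier analysis of these data. It is complementary to positions 2 to 8 of neither strand of the Upf1 siRNA. No comparison with the control siRNA is reported here. The siCtl cells received an siRNA too, and its part in any difference between the groups was not tested. The matches are a description of letters, and their part in any change was not tested. The complement of the antisense strand, GATAATT, was in 7.59% of 12302 expressed mRNAs, with a median log2 fold change of 0.0032 beside -0.024 for mRNAs without it. Among the members, Cnot9 and Cnot6 held it, and both fell. Their sites are shown with the 7-mer in capitals and 10 bases on either side.
Cnot9, chr1:74529756-74529782, plus strand: ggtcttcgaaGATAATTtccaggtgtc
Cnot6, chr11:49671930-49671956, minus strand: agatgttgcaGATAATTtcgagaacat
In neither site did the pairing with the antisense strand go on past the 7 bases. The complement of the sense strand, AACCTTG, was in 9.57% of mRNAs (median log2 fold change -0.11 with it, -0.016 without). It was in 6 members, of which Ddx6 and Exosc5 rose, Cnot11 fell, and Cnot6l, Btg1 and Btg2 were not called.

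GCAGTAC was in 5.08% of mRNAs, with a median log2 fold change of 0.24 beside -0.032 for those without it. Because this 7-mer was taken from these same data, that difference is not independent evidence about it. GCAGTAC was in 4 members. Cnot7 and Dcp1a, which rose, are shown with Cnot11, which fell, again with the 7-mer in capitals. The fourth, Dcp2, was not called.
Cnot7, chr8:40493621-40493647, minus strand: cttctattctGCAGTACttataggtat
Dcp1a, chr14:30526878-30526904, plus strand: ttccgtgagcGCAGTACcacctcatta
Cnot11, chr1:39546671-39546697, plus strand: caccaaccaaGCAGTACcatggctgat
In all, 11 of the 45 members held at least 1 of the 3 7-mers, so most called members, including Exosc9, Dcp1b, Cnot1, Ttc37 and Pabpc1, held none of them in the 3′ UTR examined. Coordinates are on GRCm38 with the GENCODE M21 annotation. The isoforms that N2A cells use may differ from the representative transcripts.

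An annotated NMD isoform, a transcript that the annotation labels as a substrate of nonsense-mediated decay, was present for 24 members. Of these, 4 rose and 11 fell, with a median log2 fold change of -0.15. Over all protein-coding genes tested, 839 of the 3628 with such an isoform rose and 1058 fell, with a median of -0.035. Of the 21 members without such an isoform, 4 rose and 10 fell, with a median of -0.13, beside 2285 higher and 2330 lower of 9118 protein-coding genes and a median of -0.016. The counts are per gene, so a change in an isoform that makes up little of a gene's reads is not seen.

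Around the members lie further genes of the same pathways, such as the LSM ring that binds deadenylated 3′ ends, other deadenylases and the adaptors that bring CCR4-NOT to particular mRNAs. Of 50 such genes 49 were tested, since Exosc6 had 0 counts in every library. The reason for this was not tested, and it need not mean that Exosc6 is silent in N2A cells. Of the 49, 9 rose, 16 fell and 24 were not called, and their median log2 fold change was -0.03. Over all genes tested, 44.9% were called, 22.0% higher and 22.9% lower, so the share of these genes called was near that of all genes. Among genes tested with a mean of at least 250, 60.2% were called, 29.0% higher and 31.2% lower. Most of these pathway genes also reached that mean, but Nudt16, Pabpc1l, Zfp36l1 and Nanos1, none of them called, did not. The share of the 49 called was below 60.2%, but it was not taken over a set of like abundance. Among the LSM ring and decapping partners, 3 of 14 rose and 5 fell. Of the exosome and SKI cofactors tested, 2 of 11 rose and 2 fell. Of 7 partners of poly(A)-binding proteins, 1 rose and 2 fell, and of 5 other deadenylases 1 rose and 2 fell. Both uridylyl transferases, which add uridines to shortened tails, fell. Of the 10 adaptors, 2 rose and 3 fell.

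The decreases of largest size in these pathway genes were those of Tut4, Zfp36 and Zfp36l2. Tut4, a uridylyl transferase, had 3105 and 3122 in siCtl and 2043, 1550 and 1676 in siUpf1 (log2 fold change -0.83, SE 0.15, DESeq2 adjusted p = 5.72e-07). Zfp36, which recruits CCR4-NOT to AU-rich elements, had 541 and 521 in siCtl and 282, 300 and 334 in siUpf1 (-0.80, SE 0.12, DESeq2 adjusted p = 1.44e-09). Its relative Zfp36l2 had 2549 and 2507 in siCtl and 1475, 1396 and 1504 in siUpf1 (-0.79, SE 0.064, DESeq2 adjusted p = 1.18e-33). None of these genes had overlapping groups, and the siUpf1 libraries of Tut4 spread more widely than those of Zfp36l2.

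The increases of largest size were those of Rc3h2, Tent4a and Nudt3. Rc3h2, a Roquin-family protein that recruits CCR4-NOT to stem-loops, had 1817 and 1814 in siCtl and 3554, 2678 and 3008 in siUpf1 (0.76, SE 0.15, DESeq2 adjusted p = 3.24e-06). Tent4a, a poly(A) polymerase, had 2146 and 2106 in siCtl and 3083, 3138 and 3330 in siUpf1 (0.58, SE 0.059, DESeq2 adjusted p = 6.47e-22). Nudt3, a decapping enzyme of the Nudix family, had 2223 and 2334 in siCtl and 3013, 3144 and 3007 in siUpf1 (0.42, SE 0.057, DESeq2 adjusted p = 1.67e-12). These 6 calls were among the 14 of 25 called pathway genes that kept their call under all 12 alternatives.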

How the data were processed

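Polyadenylated RNA was measured by strand-specific RNA-seq in 5 N2A libraries, grouped by their labels. The table deposited by the authors gave unnormalised read counts, made by trimming with fastp, mapping to GRCm38.p6 with STAR 2.7.0f and counting of reverse-strand exon reads with featureCounts (Subread 1.6.4) against GENCODE M22 or M25. Versions are from the submitters' processing notes. Reads from near-identical copies are lost or split by such counting.

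All 55573 genes were fitted with DESeq2 1.42.0 in R 4.3.3 (Wald test on group alone, with the default size factors by median of ratios and its independent filter), after the study's methods. A gene was called at a Benjamini-Hochberg adjusted p under 0.05 over the 15191 genes tested. Normalised counts are counts divided by DESeq2 size factors, and SDs are between libraries. With 20402205 to 27717594 assigned reads per library, all 45 members were tested. edgeR 4.0.16 (quasi-likelihood) was the first alternative. Pair ratios used a pseudocount of 1 and an exact permutation test (SciPy 1.17.1). Scripts were tested on simulated counts.

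Annotation came from GENCODE M21 on the same build, which held 55480 of the identifiers. The representative transcript was the basic protein-coding transcript with the longest coding sequence, and 3′ UTRs of at least 50 nt were searched. TPM values were computed from counts per kilobase.

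The members and the lists of pathway genes were chosen with earlier results of these data known. Every member could be named. Values in every library were given for members called with a log2 fold change of at least 0.3 in size and for both genes of each pair, and for some other members chosen after their values were seen. Of the other pathway genes, the 3 strongest called increases and the 3 strongest called decreases at a mean of at least 100 were named. Which markers and other members to mention, and that Wdr61 was named, was decided after their values were seen. A further gene of the marker list is not reported here.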

Additional observations from a re-analysis of the deposited data

How the results depend on the processing

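Of the 29 members called, 14 (5 higher, 9 lower) kept their call under all 12 alternatives, 13 lost it without some library, and 0 changed direction. Those 13 had log2 fold changes of at most 0.27 in size. Leaving out each siUpf1 library in turn gave 7 to 8 members higher and 16 to 21 lower, and 9 other pathway genes higher and 14 to 17 lower. In these fits 40.7% to 42.9% of all genes tested were called, beside 44.9% with all libraries. Without siCtl replicate 1 or siCtl replicate 3, the median log2 fold change of the members was -0.15 each time. Where 1 siCtl library was left, it was assumed to vary like the siUpf1 libraries. The median log2 fold change of the members lay between -0.18 and -0.12 under all alternatives.

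With the replicate number as a block, 5 members were higher and 9 lower, and 5 other pathway genes were higher and 10 lower. In this replicate block fit 15 called members lost their call, and 3919 of 12606 genes were called in all (31.1%). Apart from edgeR, no alternative has a share of all genes by direction here. Whether the share of members called lower stays above that of all genes is therefore not shown for this block or when a library is left out. Same-numbered libraries did not deviate together (r = -0.086 for number 1 and -0.075 for number 3 over 11898 genes), so the numbers were not taken as pairs. Cnot11 (DESeq2 adjusted p = 0.07, 3.96e-06 to 0.07 over its alternatives) and Exosc3 (0.0548, 5.52e-05 to 0.0548) lost their call only under the block. With this block, Exosc2 was at -0.013.

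Changes of sign were limited to members that were not called, near 0. With TMM size factors, Tob1 was at -0.0039 and Exosc2 at -0.0048. With total counts as size factors, Exosc1 was at 0.011 and Exosc10 at 0.0059. With the length and GC trend removed by natural splines, a form chosen after seeing the data, Exosc1 was at 0.13 and Pabpn1 at 0.029. Leaving out a library gave -0.048 to 0.052 for Tob1, -0.012 to 0.067 for Btg1, -0.063 to 0.031 for Exosc1, -0.026 to 0.030 for Exosc2, -0.050 to 0.014 for Exosc10 and -0.069 to 0.0094 for Pabpn1. Cnot6l was called lower by edgeR, with TMM size factors, with the trend removed and without siUpf1 replicate 1. edgeR also called Dis3l2 lower and Skiv2l higher, total counts called Skiv2l higher, and removal of the trend called Xrn1 lower. Total counts as size factors ended the calls of Pan3, Parn, Cnot2, Cnot6 and Tob2, the absence of a filter those of Pan3 and Cnot6, and removal of the trend those of Dcp1a, Cnot2, Exosc7 and Exosc8. The cause of these changes was not tested. The lowest mean of a member was 275 normalised counts (Btg2), and the spread of the siCtl group rests on 2 libraries.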
